A study of Mus musculus with 15 samples.

Results

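Gimap genes encode the GTPases of immunity-associated proteins, a family of lymphocyte GTPases whose genes lie side by side in a single cluster on mouse chromosome 6. The 7 genes described here (Gimap1, Gimap3, Gimap4, Gimap5, Gimap6, Gimap8 and Gimap9) were taken as every probe set whose platform annotation gives exactly 1 gene symbol equal to one of those names. This gave 9 probe sets of 36701, of which 2 were on chip type A, 6 on chip type B and 1 on chip type C. RNA came from A.E7 cells, a single mouse CD4 T helper clone, and each treatment was 1 pool of RNA from 2, 4 and 6 h. The mock cells were not stimulated. The cells that the array titles call anergic received anti-TCR, an antibody against the T cell receptor (TCR), alone. The other arms received anti-TCR with CSA (cyclosporin A, which blocks the phosphatase calcineurin), with PKCi (an inhibitor of protein kinase C that is not named further) or with Combo (rapamycin, which blocks mTOR, with PD98059, which blocks MEK, and SB203580, which blocks p38). Each pool was read on 1 array of each chip type, 15 arrays in all. No difference therefore has a replicate, an error over cultures or a test. All 4 comparisons share the anti-TCR arrays, and all ratios to mock on a chip type share its 1 mock array. No arm received an inhibitor without anti-TCR. An inhibitor's own effect on a level thus cannot be told apart from a block of the response to anti-TCR.

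A value is a linear array intensity, and values were set against each other only within a probe set, never between probe sets. A probe set counted as measured in a comparison when its brighter value reached 4 times the floor, the median of all values of the chip type (floors 51.1, 69.5 and 55 on A, B and C, so minimum levels of 204.4, 278 and 220). The words rose and fell are kept for measured probe sets whose values lay at least 2-fold apart. As a yardstick, probe sets of 1 gene on different chip types, which read the same RNA pools, differed with a technical SD in log2 ratio of 0.75 for anti-TCR against mock (848 pairs), 0.48 for CSA (792 pairs), 0.71 for PKCi (867 pairs) and 0.55 for Combo (839 pairs), each inhibitor arm against anti-TCR alone. This SD covers arrays and probes and not cultures. In a pool of cells, fewer cells with a transcript and less transcript per cell cannot be told apart.

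GIMAP proteins share a GTP-binding AIG1 domain related to that of septins, and several are anchored in membranes of the endoplasmic reticulum, lysosomes or mitochondria. They are best known for the survival of resting lymphocytes. Loss of Gimap5 in rats and mice leaves few peripheral T cells, and loss of Gimap1 in the lymphoid lineage depletes mature T and B cells. GIMAP3 and GIMAP5, close relatives of each other, have been found bound to anti-apoptotic Bcl2 proteins, GIMAP4 has been linked to the pace of T cell death, and GIMAP6 binds GABARAPL2, a protein of the autophagy machinery.

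The promoters of the 4 genes on which the results turn are shown because 2 of them (Gimap1 and Gimap5) rose and lie next to each other, and the other 2 (Gimap4 and Gimap6), also next to each other, were lower in every stimulated arm than with mock, as were Gimap8, which stayed under 2-fold, and Gimap7, which is not among the 7. Each is the 250 bases before the RefSeq start site in GRCm38.p6, written 5′ to 3′ along the gene's strand, with matches to the searched motifs in capitals.
Gimap1, chr6:48738797-48739046, plus strand: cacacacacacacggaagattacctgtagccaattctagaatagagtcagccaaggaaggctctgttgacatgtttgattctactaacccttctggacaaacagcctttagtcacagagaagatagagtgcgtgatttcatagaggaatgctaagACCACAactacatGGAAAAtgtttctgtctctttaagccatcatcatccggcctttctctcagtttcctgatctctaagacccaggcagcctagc
Gimap5, chr6:48745947-48746196, plus strand: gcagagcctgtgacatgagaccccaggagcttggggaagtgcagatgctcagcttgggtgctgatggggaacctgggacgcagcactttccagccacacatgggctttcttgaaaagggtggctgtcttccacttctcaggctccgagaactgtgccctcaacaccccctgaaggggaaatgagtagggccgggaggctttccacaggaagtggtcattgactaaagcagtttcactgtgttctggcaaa
Gimap4, chr6:48684328-48684577, plus strand: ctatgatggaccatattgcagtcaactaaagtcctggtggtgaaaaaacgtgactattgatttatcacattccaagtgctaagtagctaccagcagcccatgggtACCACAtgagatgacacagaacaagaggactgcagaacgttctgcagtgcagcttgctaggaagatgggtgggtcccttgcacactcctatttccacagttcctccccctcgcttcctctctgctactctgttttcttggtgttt
Gimap6, chr6:48708245-48708494, minus strand: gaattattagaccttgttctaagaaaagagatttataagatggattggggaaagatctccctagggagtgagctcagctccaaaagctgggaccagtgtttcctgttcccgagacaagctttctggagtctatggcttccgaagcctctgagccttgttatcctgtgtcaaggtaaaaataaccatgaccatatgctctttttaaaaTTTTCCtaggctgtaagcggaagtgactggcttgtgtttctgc
The 6 motifs, searched on both strands, were the NFAT core GGAAAA, the AP-1 motif TGANTCA, the EGR motif GCGTGGGCG, the FOXO motif GTAAACA, the ETS core CCGGAA and the RUNX core TGTGGT. Gimap1 held 1 NFAT core with its first base at -82 from the start site and 1 RUNX core at -95, which do not overlap. Gimap6 held 1 NFAT core at -43, Gimap4 held 1 RUNX core at -145, and Gimap5 held none of the 6. Among 32851 promoter windows of the same length in the RefSeq table, 20.4% held the NFAT core, 14% the RUNX core, 12% the ETS core, 6.75% the AP-1 motif, 3.17% the FOXO motif and 0.536% the EGR motif. A match describes the letters only and is not a binding site.

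Anti-TCR alone against mock asks how the family responded to engagement of the receptor, and the members' ratios lay in both directions. Gimap1 and Gimap5 rose, Gimap4 fell, and Gimap3, Gimap6 and Gimap8 moved less than 2-fold and within the technical SD. Of the 9 probe sets 6 were measured, 1 for each of these 6 genes; 2 rose and 1 fell. Over all 7452 measured probe sets with 1 symbol, 12.9% rose and 13.8% fell. With 6 probe sets, neither count can be set apart from these shares. The median log2 ratio of the 6 was 0.11, against -0.06 over all measured probe sets, with 3 ratios above 0 and 3 below.

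Gimap1, needed for mature lymphocytes, had the largest rise. On its probe set 92489_at it read 229 with mock, 948 with anti-TCR, 446 with CSA, 848 with PKCi and 851 with Combo. Mock was the lowest of the 5, and on the log scale CSA lay about midway between mock and the other 3. The rise with anti-TCR was 4.15-fold, a log2 ratio of 2.05 against a technical SD of 0.75, and 4.25% of all measured probe sets rose as much or more. The same rise was 3.71-fold in the PKCi arm and 3.72-fold in the Combo arm against mock.

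Gimap5, whose loss is the classic cause of T cell lymphopenia in rats, read 1427 with mock, 3065 with anti-TCR, 1103 with CSA, 871 with PKCi and 1640.5 with Combo on 104949_at. Anti-TCR alone stood above the other 4, and CSA and PKCi lay below mock. The rise was 2.15-fold (log2 ratio 1.10), which is 1.5 times the technical SD, and 11.5% of measured probe sets rose as much or more. With quantile normalization of the arrays it was 0.87 on the log2 scale and no longer reached 2-fold, which left 1 riser, Gimap1.

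Gimap3, the closest relative of Gimap5 in the mouse cluster, has 2 probe sets, both on chip type B. The brighter, 115149_at, read 367 with mock, 527 with anti-TCR, 287 with CSA, 290.5 with PKCi and 536 with Combo. Its order resembled that of Gimap5 in that CSA and PKCi were lowest, but Combo was as high as anti-TCR alone. The log2 ratio of anti-TCR to mock was 0.52, within the technical SD. The other probe set, 110710_at, read 119, 148, 158, 76.7 and 212.5 in the same order of treatments and reached the minimum level of 278 in no arm. Both probe sets were higher with anti-TCR and with Combo than with mock and lower with PKCi, and they disagreed on CSA, which lay below mock on the brighter one and above it on the dimmer one.

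Gimap4, linked to the pace of T cell death, fell. On 96172_at it read 2361 with mock, 964 with anti-TCR, 1001 with CSA, 921 with PKCi and 1023 with Combo. The 4 stimulated arms lay close together and all below mock. All of these gaps rest on the same mock array. The fall with anti-TCR was 2.45-fold (log2 ratio -1.29, 1.7 times the technical SD), and 8.91% of measured probe sets fell as much or more. The second probe set, 135687_r_at on chip type C, carries the r suffix of a probe set that broke a design rule and was below the minimum level in every arm. It read 189 with mock, 97 with anti-TCR, 59.7 with CSA, 130 with PKCi and 71.3 with Combo, so mock was again the highest of the 5.

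Gimap6, the GABARAPL2 partner, read 2820 with mock, 1730 with anti-TCR, 1062 with CSA, 1303 with PKCi and 1205 with Combo on 106635_at. Mock was highest, and each inhibitor arm was lower than anti-TCR alone. The 1.63-fold difference between anti-TCR and mock (log2 ratio -0.70) was below the 2-fold limit and within the technical SD. The gap to mock passed 2-fold in every inhibitor arm, at a log2 ratio of -1.41 with CSA, -1.11 with PKCi and -1.23 with Combo. All of these ratios share the same mock value. Against mock, 7.77%, 3.72% and 6.06% of all measured probe sets fell at least 2-fold in those arms.

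Gimap8, which carries several GTPase domains in 1 protein, was the steadiest measured member. Its probe set 111711_at read 1178 with mock, 952 with anti-TCR, 966 with CSA, 742 with PKCi and 893 with Combo. The highest and lowest of these were 1.59-fold apart. Gimap9, a member of which little is known, read 215 with mock, 197 with anti-TCR, 345 with CSA, 155 with PKCi and 145 with Combo on 104966_at. It reached the minimum level only with CSA, where it was 1.75-fold above anti-TCR alone and 1.60-fold above mock, both short of 2-fold.

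**Figure D1:**
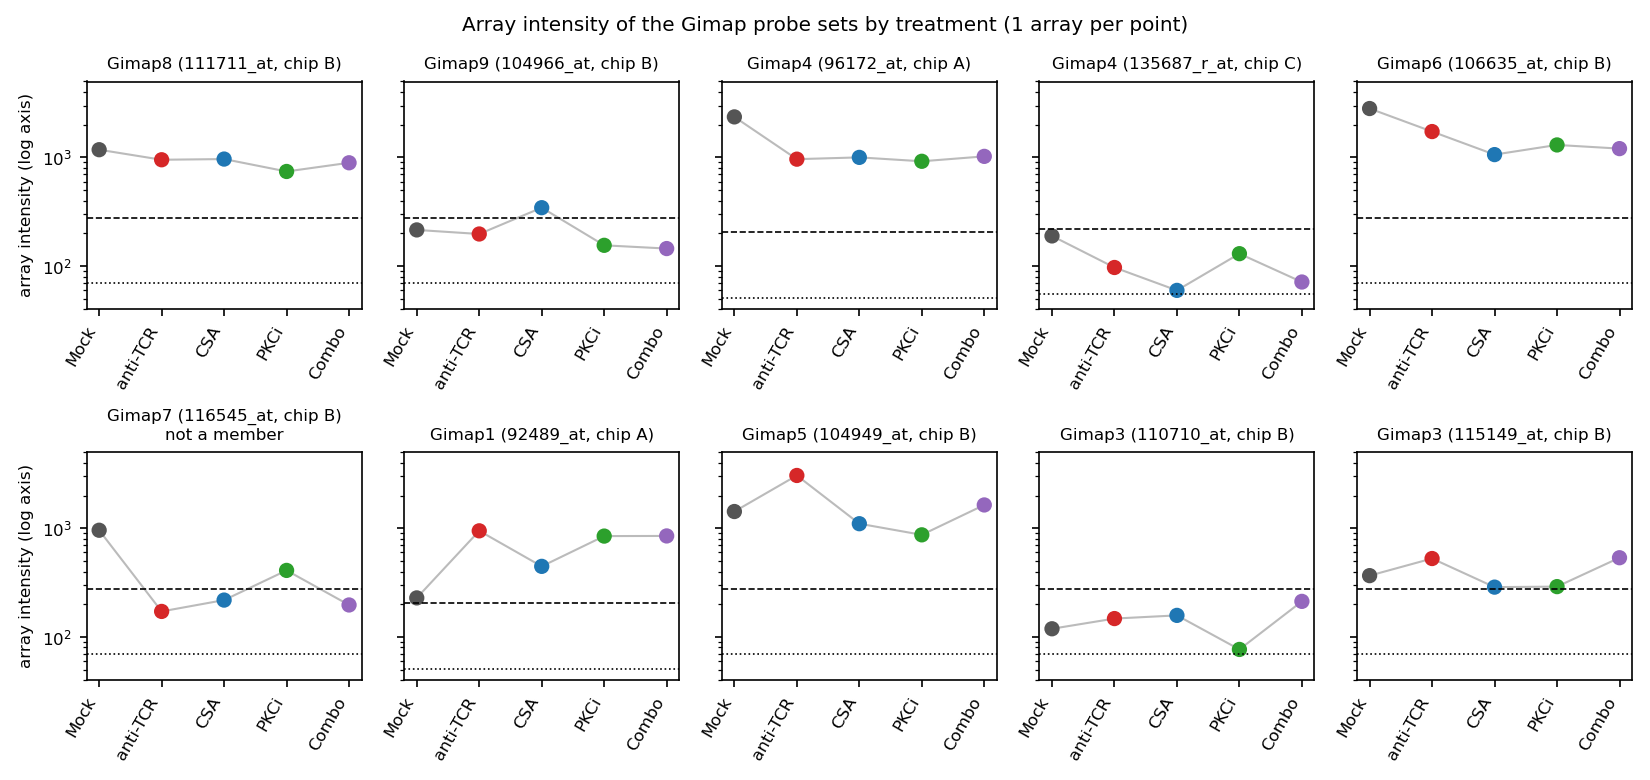
Array intensity (log axis) of the 9 Gimap probe sets and of Gimap7 in each of the 5 treatments, 1 array per point, with the floor (dotted) and 4 times the floor (dashed) of the chip type. Gimap1 and Gimap5 are higher with anti-TCR (948 and 3065) than with mock (229 and 1427), whereas Gimap4 lies between 921 and 1023 in the stimulated arms against 2361 with mock.

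The CSA arm, set against anti-TCR alone, asks what differed when calcineurin was blocked. Both genes that had risen were lower with CSA, Gimap5 by 2.78-fold (3065 against 1103) and Gimap1 by 2.12-fold (948 against 446). The log2 ratios of -1.47 and -1.09 were 3.1 and 2.3 times the technical SD of 0.48. The rise and the drop of a gene share its anti-TCR value, so a high reading there would enlarge both. They are not separate measurements. Of 7 measured probe sets 0 rose and 2 fell, where 5.12% and 5.7% of all 7015 measured probe sets did. Gimap9 is among the 7 only because it was bright with CSA. Gimap4 was level (log2 ratio 0.05) and so was Gimap8 (0.02), while Gimap3 (-0.88 on its brighter probe set) and Gimap6 (-0.70) were lower without reaching 2-fold.

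The amount of the response that was left differed between the 2 induced genes in these arrays. Gimap1 kept 47% of its log2 rise with CSA and stayed 1.95-fold above mock, a gap short of 2-fold and 1.5 times the technical SD of 0.64. Gimap5 kept none of its log2 rise and ended 1.29-fold below mock, a gap within the technical SD. Gimap4 kept 95.8% of its log2 fall. Of the 961 probe sets that rose with anti-TCR over all genes, 28.9% were at least 2-fold lower with CSA, a pattern looked up after the Gimap values were seen.

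The PKCi arm, set against anti-TCR alone, asks what differed with the inhibitor of protein kinase C. Gimap5 was the one member past 2-fold, 3.52-fold lower (3065 against 871, log2 ratio -1.82, 2.5 times the technical SD of 0.71). Gimap1 was level, at 948 and 848 (log2 ratio -0.16). Of 6 measured probe sets 0 rose and 1 fell, against 14.4% and 10.5% of 7469. Neither count can be set apart from these shares with 6 probe sets. All 6 ratios were below 0, from -1.82 to -0.06, with a median of -0.38 against 0.02 over all measured probe sets; 5 of the 6 were under 2-fold, and all rest on the same anti-TCR arrays. With quantile normalization the ratio of Gimap4 was 0.01, so that it was no longer below 0. Gimap4 kept its whole fall (105% of the log2 change), and Gimap3 (-0.86) and Gimap6 (-0.41) were lower without reaching 2-fold. Among the probe sets that rose with anti-TCR, 54.4% were at least 2-fold lower with PKCi, 23.7% were, like Gimap5, at least 2-fold lower with both CSA and PKCi, and 4.27% were, like Gimap1, lower with CSA but not with PKCi or Combo.

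The Combo arm, set against anti-TCR alone, asks what differed when mTOR, MEK and p38 were blocked together. No member passed 2-fold: 0 of 6 measured probe sets rose and 0 fell, against 8.08% and 5.85% of 7244. Counts of 0 over 6 probe sets cannot be set apart from these shares. Gimap5 came nearest, at 1640.5 against 3065 (1.87-fold lower, log2 ratio -0.90), which left 18.2% of its log2 rise. That size depends on the scaling, since quantile normalization gave -0.33. Gimap1 kept 92.4% and Gimap4 93.4% of the log2 change seen with anti-TCR alone, and Gimap3 was level with anti-TCR (536 and 527).

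The inhibitor arms can also be set against each other, although each is 1 array per chip type. Gimap1 was lower with CSA (446) than with PKCi (848) or Combo (851), a log2 ratio of -0.93 in both cases and so under 2-fold. Gimap5 was lower with PKCi (871) than with Combo (1640.5), a log2 ratio of -0.91. Gimap9 read 345 with CSA, 155 with PKCi and 145 with Combo, so it was 2.22-fold higher with CSA than with PKCi and 2.38-fold higher than with Combo. Both ratios pass 2-fold, but only the CSA value reached the minimum level of 278. Gimap9 thus counts as measured here through its CSA value alone.

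**Figure D2:**
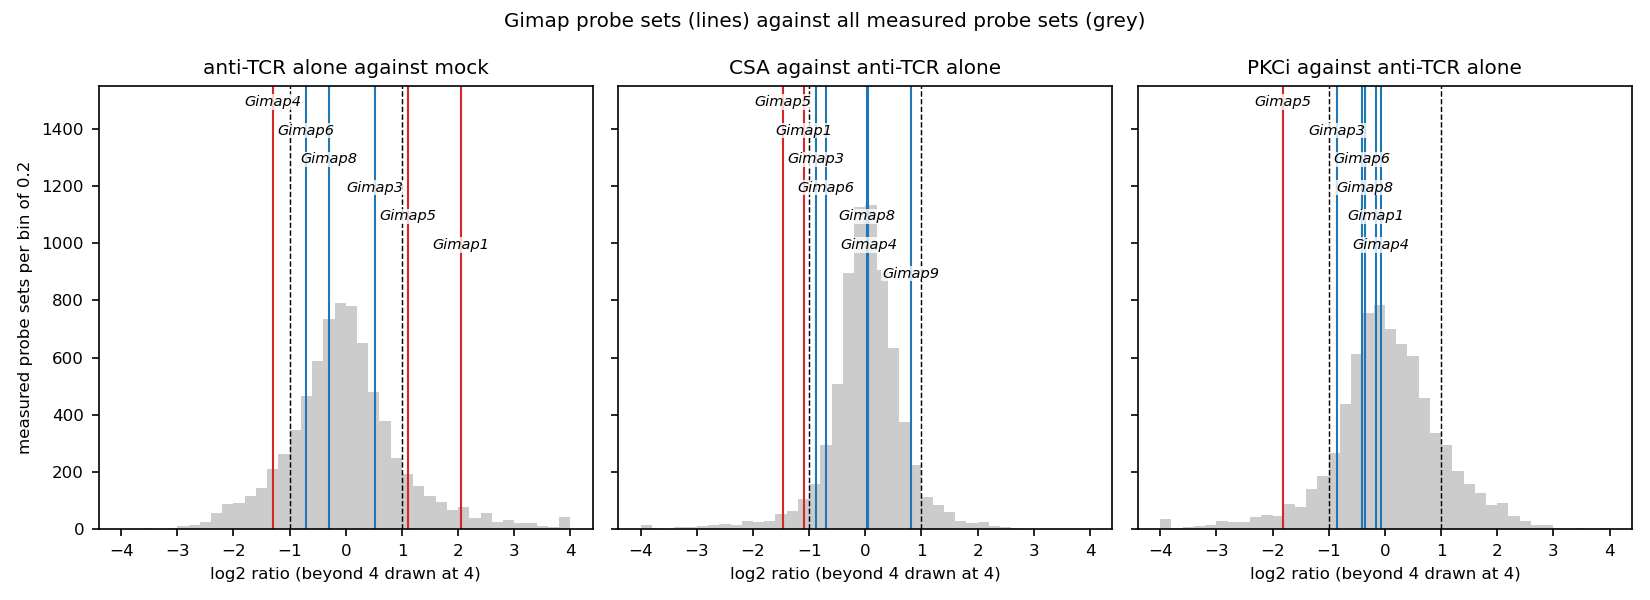
Log2 ratios of the measured Gimap probe sets (vertical lines, red when at least 2-fold apart) on the histogram of all measured probe sets with 1 symbol (grey), for anti-TCR against mock and for CSA and PKCi against anti-TCR; dashed lines mark 2-fold. Gimap1 (2.05) and Gimap5 (1.10) lie to the right in the first panel, and Gimap5 lies to the left in the other panels (-1.47 and -1.82).

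Along the chromosome, by the gene order of the RefSeq table of GRCm38.p6, the cluster runs Gimap8, Gimap9, Gimap4, Gimap6, Gimap7, Gimap1, Gimap5 and Gimap3. The members below mock and those above it after anti-TCR did not alternate in this order. Gimap8, Gimap9, Gimap4 and Gimap6 had log2 ratios below 0 (-0.31, -0.12, -1.29 and -0.70), and Gimap1, Gimap5 and Gimap3 had ratios above 0 (2.05, 1.10 and 0.52, with 0.31 on the dimmer probe set of Gimap3). Of these, the ratios of Gimap8, Gimap9, Gimap6 and Gimap3 lay within the technical SD. Gimap9 and the dimmer probe set of Gimap3 did not reach the minimum level with mock or anti-TCR, so their ratios were not measured. Gimap7, which is on the arrays but not among the 7 genes, lies between Gimap6 and Gimap1 and fell furthest. It read 960 with mock, 172 with anti-TCR, 218 with CSA, 410 with PKCi and 197 with Combo on 116545_at, a 5.59-fold fall with anti-TCR (log2 ratio -2.48) that 0.658% of measured probe sets matched or passed, and it was 2.39-fold higher with PKCi than with anti-TCR alone. Together with Gimap4 it belongs to the 53 probe sets (5.17% of the 1026 that fell) that lay at least 2-fold below mock in all 4 stimulated arms. For each probe set the 4 gaps share the same mock value.

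The 4 measured genes flanking the cluster did not pass 2-fold with anti-TCR alone. Of the 20 genes taken, 10 on either side, 10 had a probe set with 1 symbol and 4 were measured. Of these 4, 0 rose and 0 fell with anti-TCR (median log2 ratio -0.40). Over all measured genes 11.4% rose and 13.9% fell (median -0.08). With 4 genes, the counts of 0 cannot be set apart from these shares. On the side of Gimap3, the membrane protein genes Tmem176b and Tmem176a were lower in all stimulated arms. Tmem176b read 2107 with mock and 1089, 1060, 976 and 1095 with anti-TCR, CSA, PKCi and Combo, a log2 ratio of -0.95 for anti-TCR, and with PKCi it lay more than 2-fold below mock. Tmem176a read 785 and then 487, 404, 427 and 458 (-0.69). These orders resemble that of Gimap4, although Gimap1, Gimap5 and Gimap3 lie between. On the side of Gimap8, AI854703, a transcribed pseudogene, was level (907 and 883), and so was Atp6v0e2, a subunit of the vacuolar proton pump (426 and 396).

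**Figure D3:**
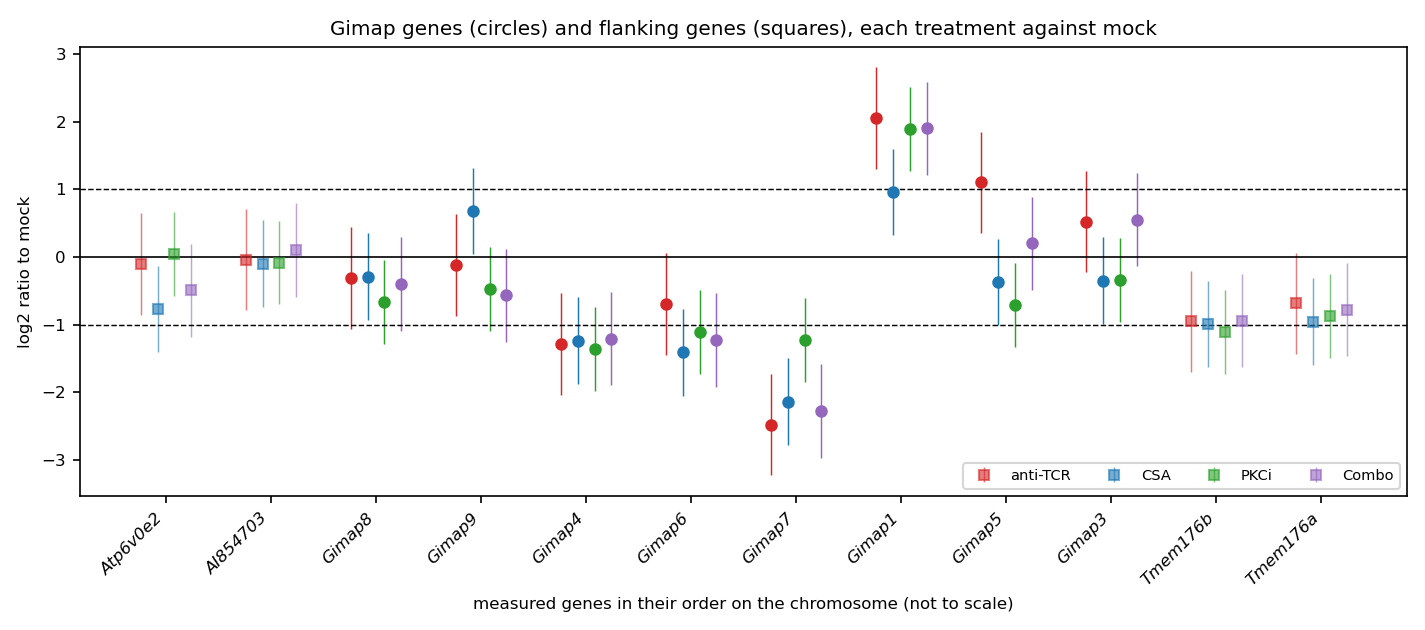
Log2 ratio of each stimulated arm to mock for Gimap genes (circles, Gimap7 included) and flanking genes (squares) that reached the minimum level in any treatment. Genes stand in their order on the chromosome and not to scale. Bars are the technical SD of that comparison and dashed lines mark 2-fold. Gimap9 reached the minimum level only with CSA, so its ratios to mock in the other arms were not measured. Gimap4, Gimap6, Gimap7 and Gimap8 lie below 0 in all 4 arms, as do the flanking Tmem176b and Tmem176a. Gimap1 lies above 0 in all 4 arms (0.96 with CSA), and Gimap5 is above 1 with anti-TCR alone (1.10). The 4 ratios of a gene share the same mock value.

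Closeness of the members' patterns was measured as the Euclidean distance between log2 profiles over the 5 treatments, each centred on its own mean. The nearest pair was Gimap4 and Gimap6 (0.59), followed by Gimap5 and Gimap3 (0.77). Gimap8 was almost as near to several members, at 0.8 from Gimap4, 0.86 from Gimap6, 0.87 from Gimap9 and 0.93 from Gimap3. Gimap6 lay 1.3 from Gimap3. Gimap1 lay 1.61 from Gimap3 and 1.91 from Gimap5, and 2.81 from Gimap4. Gimap7 lay 1.25 from Gimap4 and 1.46 from Gimap6, so of the genes below mock with anti-TCR not all were close to each other. Among 2792 other genes with a range of at least 1 on the log2 scale, those closest to the median profile of the 7 bright member probe sets were Lnx2 (0.47), Plagl2 (0.48), Lgals3 (0.50), Cst7 (0.50) and Med13l (0.50). These distances are about as large as that between Gimap4 and Gimap6, and the median profile hides the differences between members. Gimap9 is among the 7 probe sets only through its CSA value.

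For single members, looked up after their values were seen, the closest genes were nearer. Gimap5 was closest to Klf9, a Kruppel-like factor (0.19), which read 302, 599, 249, 202 and 354 with mock, anti-TCR, CSA, PKCi and Combo, and next to Ptch1, the Hedgehog receptor (0.32). Gimap1 was closest to Nfkbib, an inhibitor of NF-kB (0.25), at 135, 508, 225, 435 and 519.5, and next to Slc3a2, the heavy chain of amino acid transporters (0.36). Gimap4 was closest to Trav9d-3, a T cell receptor alpha variable segment read on an f-suffixed probe set (0.20), at 3770, 1498, 1789, 1378 and 1709, and to Mcts1 (0.20). Gimap6 was closest to 2310001H17Rik on a g-suffixed probe set (0.20). With 5 points per profile, such likeness is a description of these arrays.

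Lists of the Bcl2 family and of GABARAP and autophagy genes were read because they hold known partners of GIMAPs. Not every listed gene encodes a partner. Of 14 Bcl2 family genes on the arrays 7 were measured, and 0 rose and 0 fell with anti-TCR (median log2 ratio -0.22). Over all measured genes 11.4% rose and 13.9% fell (median -0.08), and counts over 7 genes cannot be set apart from these shares. Bcl2l1, which encodes Bcl-xL, read 162.5 with mock and 282 with anti-TCR (log2 ratio 0.80), and Bcl2 itself 213 and 227 (0.10). Mcl1, on an f-suffixed probe set, read 5295 and 2686, a log2 ratio of -0.98 that fell just short of the limit and passed it with quantile normalization, and the pro-apoptotic Bbc3, on an r-suffixed one, read 307 and 207 (-0.57).

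Of 16 GABARAP and autophagy genes 9 were measured, of which 1 rose and 2 fell with anti-TCR (median 0.10). Over all measured genes 11.4% rose and 13.9% fell (median -0.08), and with 9 genes the counts cannot be set apart from these shares. Gabarapl2, the partner of GIMAP6, fell from 1745 to 719 (log2 ratio -1.28) and read 962, 1012 and 722.5 with CSA, PKCi and Combo. Like Gimap6 it was highest with mock, as were 28.9% of all probe sets measured for anti-TCR against mock. Map1lc3b, which encodes the autophagosome protein LC3B, fell from 584 to 119 (-2.29), read 177 with CSA, still far below mock, and read 599.5 with PKCi and 523 with Combo, near its mock value. Sqstm1, the autophagy receptor p62, rose from 362 to 857 (1.24), and Atg3, which conjugates LC3 to lipid, read 206 and 363 (0.82).

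Genes of naive and resting T cells, the cells in which Gimap genes are best known, moved in both directions. Of 14 measured, 2 rose and 5 fell with anti-TCR (median -0.36), where 11.4% of all measured genes rose and 13.9% fell; with quantile normalization 1 rose. Pik3ip1, an inhibitor of PI3 kinase read on an i-suffixed probe set, fell from 936 to 122 (-2.94), and Il7r, the IL-7 receptor, from 2215 to 492 (-2.17). Ets1, a transcription factor of lymphocytes, rose from 493.5 to 1512 (1.62) and Foxp1 on an i-suffixed probe set from 2074 to 4258 (1.04). Klf2, Ccr7 and S1pr1, which mark recirculating T cells, read below the floor of chip type A in every arm (9.1, 25.6 and 44.7 with mock); a failed probe set would read the same, so these values do not show whether the genes were expressed.

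**Figure D4:**
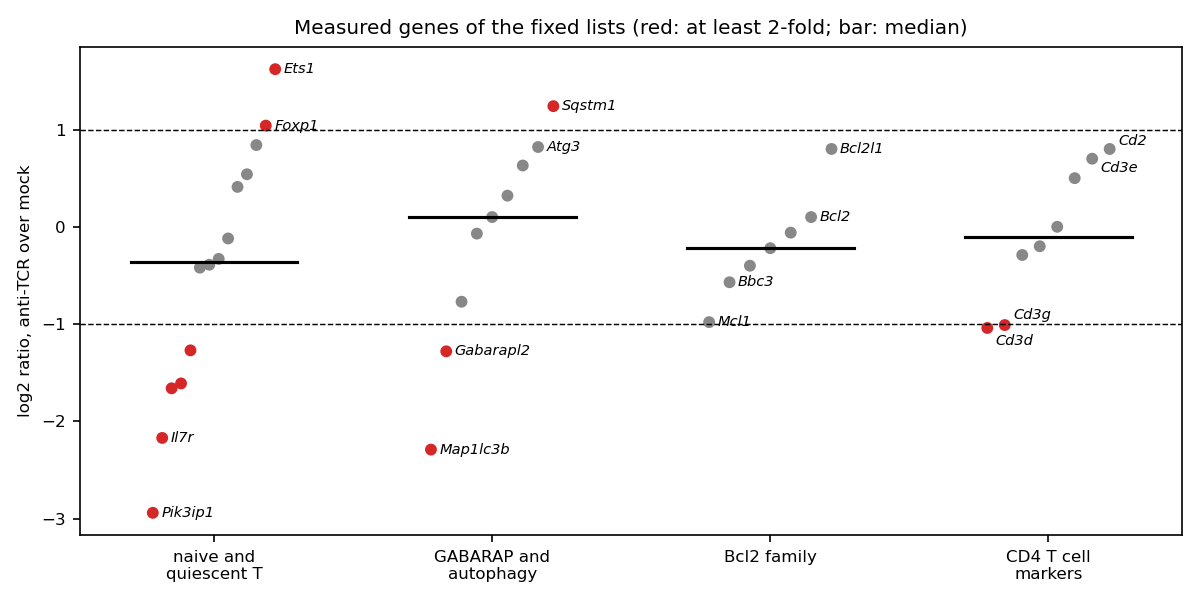
Log2 ratio of anti-TCR to mock for the measured genes of 3 lists and of the CD4 T cell markers, 1 point per gene (red when at least 2-fold apart), with the median as a bar and 2-fold as dashed lines. The lowest points are Pik3ip1 (-2.94), Map1lc3b (-2.29) and Il7r (-2.17), and the highest is Ets1 (1.62).

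The arrays fitted a CD4 T cell. Of 9 CD4 T cell markers on the arrays 8 were bright, among them Cd4 (610 with mock and 608 with anti-TCR) and Thy1 (3212 and 2624), and Cd5 was below the floor. With anti-TCR 0 of the 8 rose and 2 fell, Cd3d (log2 ratio -1.04) and Cd3g (-1.01), and the summed level of the list lay between 7319 and 10296 over the 5 treatments. Of 5 B cell markers 0 were bright, and their sum lay between 203 and 276. Of 8 macrophage and dendritic cell markers 1 was bright, Cd14, with Lyz2 at 2.6 with mock and a sum between 348.5 and 537, and of the 3 neutrophil and 2 erythroid markers 0 were bright. Among 5 CD8 T and NK cell markers Klrd1 was bright and fell (4063 to 1594), while Cd8a read 4.7 with mock. Cd4 read 616 with CSA, 597.5 with PKCi and 879.6 with Combo. With anti-TCR the other markers of the list moved in both directions, from Cd3d (-1.04) to Cd2 (0.8). The part of cell composition in the Gimap differences was not tested. Between 17.4% and 23% of the probe sets of an array reached the minimum level.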

How the data were processed

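Array intensity values were used as deposited, 1 value per probe set and array for 15 arrays (5 treatments on chip types A, B and C). Within a chip type, the 2% trimmed mean varied by at most 0.242% between arrays, so the deposited linear intensity values had been scaled to one level. How this was done is not stated in the sources used here. Detection calls were not used. Groups came from the array titles. Of 36701 probe sets 29131 carry 1 gene symbol in the platform annotation, 724 several and 6846 none; the last 2 kinds were left out. The 9 member probe sets matched the RefSeq gene table by gene identifier with unchanged symbols, and the table lists Gimap5 as an older name of Gimap3. Gimap genes are related in sequence, and cross-hybridization between them was not tested. Before log2, any value under the floor was replaced by it. Genes of lists were read from the probe set with the highest mean. For the technical SD, the brightest measured probe set of a gene on each chip type was taken, and the SD of the differences in log2 ratio between chip types was divided by the root of 2. All 9 member probe sets are named. Of a list, the 2 highest and 2 lowest genes, all measured flanking genes, and the 5 genes closest to the median member profile are named. Gimap7, the genes closest to single members, the 3 recirculation genes and the counts of shared patterns were picked with their values in view. The members and lists were chosen with earlier results of these data known. Promoters are RefSeq sequences of GRCm38.p6. With 1 array per group no test was made, and precision is limited by how few arrays there are. Counting and spread were tested on simulated data. Python 3.11.15, numpy 2.4.6, pandas 2.3.3 and matplotlib 3.10.9 were used. Alternatives were quantile normalization, median scaling, 0.5 and 2 times the floor, minimum levels of 2 and 8 times the floor, no suffixed probe sets, and 1 probe set per gene.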

Additional observations from a re-analysis of the deposited data

How the results depend on the processing

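No paired analysis was possible because each pool was read on a single array of a chip type. The counts of Gimap probe sets that rose or fell stayed within 1.5 times the reported ones under all 8 alternatives, with 1 exception: with quantile normalization 1 probe set rose with anti-TCR, not 2, since Gimap5 gave 0.87 on the log2 scale. Quantile normalization also moved Gimap5 with Combo against anti-TCR alone from -0.90 to -0.33; the cause was not tested. The other calls named for Gimap1, Gimap4, Gimap5 and Gimap6 kept their direction and stayed past 2-fold under the scaling and floor alternatives. The members' median log2 ratio for anti-TCR against mock changed sign with the minimum level, from 0.11 to -0.12 at 2 times and -0.31 at 8 times the floor, so it carries no direction. With 2 times the floor the dim probe sets of Gimap3 and Gimap4 lost most of their differences by construction. Among the lists, quantile normalization gave 1 fall for the Bcl2 family and 1 rise for the resting T cell genes. The technical SD for anti-TCR against mock lay between 0.69 and 0.81 over the alternatives run on it.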

Other observations

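Other GTPase families of the immune response were read as relatives of the Gimap family. Of the 7 genes of that list with a probe set (Gimap7 among them), 3 were measured with anti-TCR against mock, and of these 0 rose and 2 fell, where 11.4% of all measured genes rose and 13.9% fell. One of the falls is Gimap7 itself, described above and picked with its values in view. Irgm2, an interferon-induced GTPase, read 252 with mock, 89.1 with anti-TCR, 102 with CSA, 160 with PKCi and 115 with Combo, a log2 ratio of -1.50 for anti-TCR. As for Gimap7, mock was highest, PKCi came next and anti-TCR alone was lowest. Gbp3, a guanylate-binding protein, read 274, 334, 126, 130 and 402 in the same order of treatments. It was level with anti-TCR (0.29) and lower with CSA (-1.41) and PKCi (-1.37) but not with Combo (0.27), the order also seen for the brighter probe set of Gimap3. Iigp1, Irgm1, Igtp and Gbp2 did not reach the minimum level in any arm.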
